A study of Danaus plexippus with 32 samples.

Results

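Wild-type brains of the monarch (*Danaus plexippus*), taken in the morning, were compared by RNA-seq with brains taken 12 h later. The comparison held 8 of the 32 libraries of the series, chosen by genotype and time alone. Of these, 4 were morning libraries at ZT1 and ZT4 and 4 were evening libraries at ZT13 and ZT16, where ZT (Zeitgeber Time) is given in hours after lights on. Every library held RNA of 3 pooled brains, dissected free of eye photoreceptors, from adults entrained for at least 7 days after eclosion in 15 h of light and 9 h of darkness at 25 °C and fed a 25% honey solution. Lights went off at ZT15, so that both morning times and ZT13 fell in the light and ZT16 fell in darkness. At each time 1 library was labelled male and 1 female, and these are also replicates 1 and 2, so that sex and replicate number cannot be told apart. Brains of *Cry2* and *Clk* knockout monarchs, raised in the same way and sampled at ZT4 and ZT16 among other times, gave the same contrast in butterflies labelled as lacking a clock gene. Nothing in the labels says whether the pools of a group came from separate rearings, so that p-values measure the spread between these pools. In the comparison of evening with morning, this spread also holds differences between the times within a group, such as ZT1 and ZT4.

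Circadian clocks of insects rest on a loop in which the proteins CLK and BMAL1 switch on genes whose products later repress them. In the monarch, PER, TIM and the vertebrate-like cryptochrome CRY2 form the repressing arm, and CRY2 is its main repressor. The products of *vri* and *cwo*, which are known from *Drosophila* to feed back on *Clk* and on CLK-driven transcription, are also under clock control, and so are many output genes. Samples taken 12 h apart compare opposite sides of such a cycle, and in a light-dark cycle they also differ in the time spent in light.

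The values are FPKM (fragments counted on a gene, scaled to the length of its transcript and to the mapped reads of the library), as deposited for 15130 genes. The interval deposited with each value gives back the reads behind it, which summed to 2848069 in the shallowest and 4292760 in the deepest library, and the interval reached a median of 18.4% of the value to either side, which covers counting error only. A value of 3 FPKM or more in any of the 8 libraries was reached by 10188 genes, which were tested with limma on log2(FPKM + 1), with replicate number as a factor. The median difference over all tested genes was 0.03 on the log2 scale, slightly toward the evening. Symbols are those of the fly genes to which the study matched its 431 rhythmic genes. These were chosen as rhythmic in libraries that include the present 8, so that a count among them is not independent evidence of a daily change.

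In wild-type brains, 51 of 10188 genes (0.501% of those tested) differed between evening and morning, called where the adjusted p-value did not exceed 0.05. Of these, 25 were higher in the evening (0.245%) and 26 in the morning (0.255%), and 1131 genes (11.1%) had an unadjusted p-value under 0.05. Among the 51, 37 had a symbol, 17 of them higher in the evening and 20 in the morning. This is 8.75% of the 423 tested genes with a symbol, against 0.143% of the 9765 tested genes without one. The median difference was 0.75 for the genes higher in the evening and -0.75 for those higher in the morning. The change exceeded 1 log2 unit in 7 genes higher in the evening and 8 higher in the morning. The FPKM of the 4 morning and the 4 evening libraries did not overlap for 50 of the 51 genes, while this held for 665 of all tested genes (6.53%, of which 4.32% were higher in the evening and 2.21% in the morning). With 1 library left out, the count fell to between 4 (without the ZT16 female library) and 15 (without the ZT16 male library), and *CG11438*, *CG10660* and *CG15890* were the genes with a symbol that passed in all 8 such fits. The plot of the named genes shows the difference at both pairs of times.

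**Figure D1:**
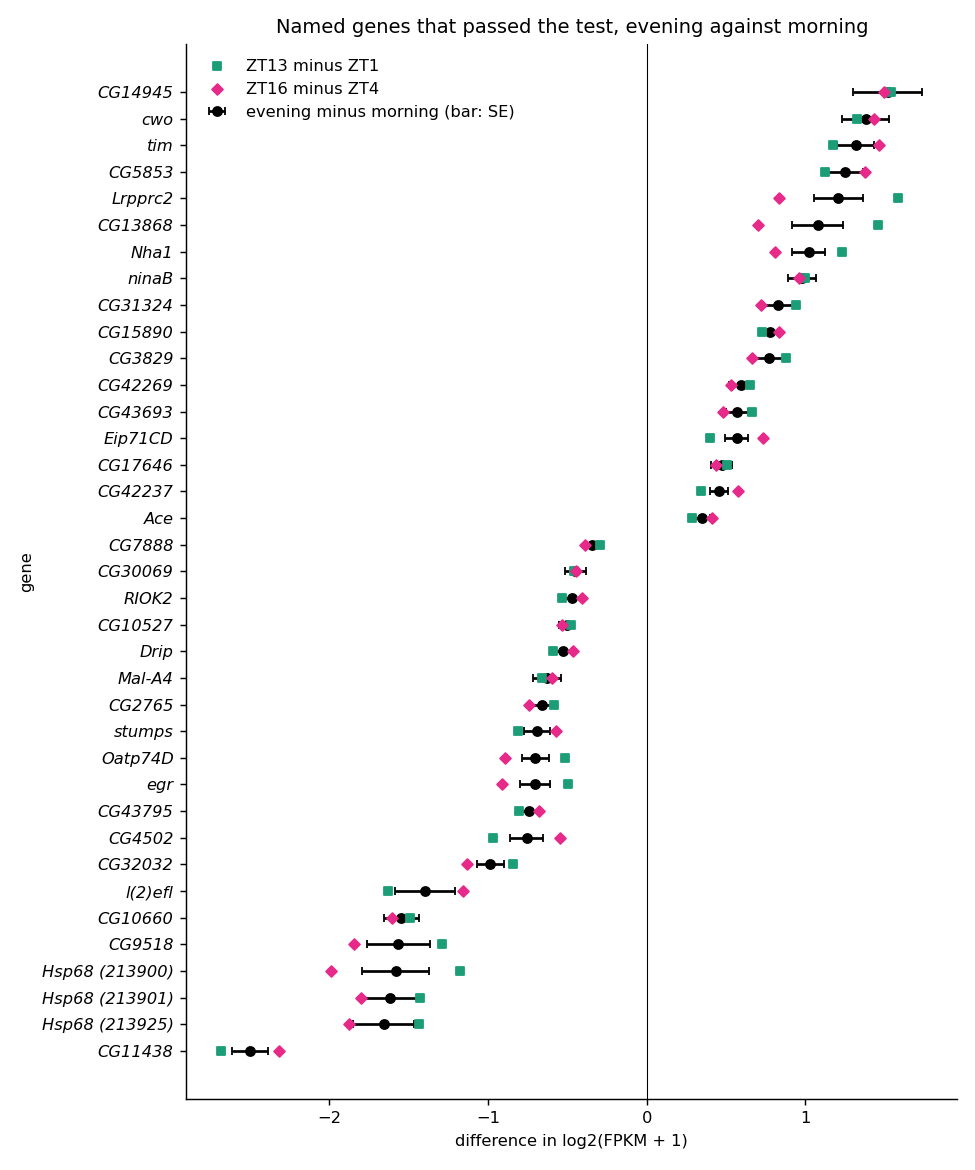
Difference in log2(FPKM + 1) between evening and morning for the 37 genes with a symbol that passed the test (black points, bars are the standard error of the limma fit over 8 libraries), with the differences ZT13 minus ZT1 (squares) and ZT16 minus ZT4 (diamonds). *CG11438* has the lowest value, -2.50, and *CG14945* the highest, 1.52.

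Clock genes were among the genes higher in the evening. For *tim*, whose product is the partner of PER in the repressor complex, FPKM was 51.7 and 46.6 at ZT1, 36.5 and 37.6 at ZT4, 114 and 110 at ZT13 and 107 and 100.2 at ZT16, with the male library given first here and in all such series below. Every evening library was above every morning library, and *tim* rose by 1.32 ± 0.12 log2 units (± standard error of the limma fit; adjusted p = 0.0119, limma). For *cwo*, a transcriptional repressor known from *Drosophila* to act on CLK-driven genes, FPKM was 5.41 and 6.64 at ZT1, 5.24 and 6.43 at ZT4, 20.9 and 13.1 at ZT13 and 16.6 and 18.3 at ZT16. The *cwo* groups did not overlap either, and the rise was 1.38 ± 0.15 (adjusted p = 0.0226, limma). In assembly v3 of the monarch genome *tim* lies on scaffold DPSCF300014 (142095 to 150218) and *cwo* on DPSCF300180 (115532 to 130653).

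The difference of *vri*, a repressor of *Clk* in *Drosophila*, was the largest of the 5 clock genes, 1.56 ± 0.24, but it did not pass (adjusted p = 0.0566, limma). Its FPKM was 16.5 and 18.1 at ZT1, 16.7 and 25.0 at ZT4, 80.9 and 70.5 at ZT13 and 45.9 and 41.9 at ZT16. All evening libraries were thus above all morning libraries, with the ZT13 libraries well above those at ZT16. With ZT13 set against ZT1 alone the difference of *vri* was 2.07 ± 0.19 (adjusted p = 0.0459, limma), and at ZT16 against ZT4 it was 1.06 ± 0.19 (adjusted p = 0.328).

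The clock gene *per* differed between the 2 pairs of times more than any other clock gene. Its FPKM was 30.7 and 29.5 at ZT1, 15.4 and 14.1 at ZT4, 31.1 and 29.1 at ZT13 and 38.4 and 37.8 at ZT16. The levels at ZT1 and ZT13 were alike and those at ZT16 were well above those at ZT4, so that *per* was 1.31 ± 0.07 higher at ZT16 than at ZT4 (adjusted p = 0.0238, limma) while the difference between ZT13 and ZT1 was -0.0017 ± 0.0738. The test of the difference between the pairs gave 1.31 ± 0.10 with an unadjusted p of 4.1e-05 and an adjusted p of 0.0839. Over both pairs, the difference of *per* was 0.66 with a 95% interval of 0.0043 to 1.31 (adjusted p = 0.446).

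For *Cry2*, FPKM was 27.6 and 28.7 at ZT1, 21.9 and 23.2 at ZT4, 23.5 and 21.3 at ZT13 and 27.6 and 26.0 at ZT16. The morning and evening libraries overlapped for *Cry2*, and the difference was -0.04 with a 95% interval of -0.32 to 0.24 (adjusted p = 0.932, limma). The difference of *Cry2* was -0.32 ± 0.09 at ZT13 against ZT1 (adjusted p = 0.48) and 0.24 ± 0.09 at ZT16 against ZT4 (adjusted p = 0.574), neither of which passed. The plot of clock genes over all wild-type times shows where these morning and evening values stand in the day: *per*, *tim* and *vri* had their highest means at ZT19, ZT13 and ZT10, and *Cry2* and *cwo* at ZT22.

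**Figure D2:**
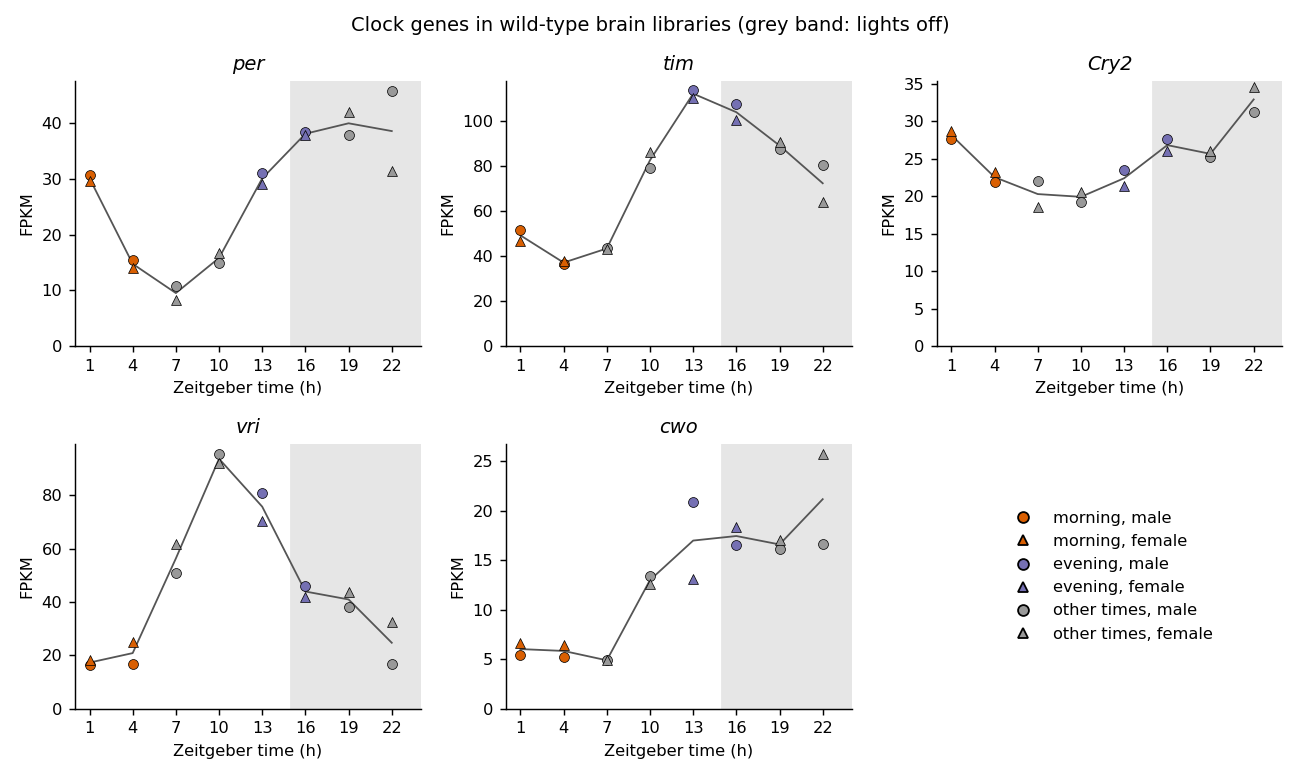
FPKM of 5 clock genes in the 16 wild-type libraries against Zeitgeber time in hours, with the mean of the 2 libraries per time as a line and darkness as a grey band. Morning libraries are orange, evening libraries purple and other times grey, with circles for male and triangles for female libraries. The evening libraries lie above the morning libraries for *tim*, *vri* and *cwo*, and overlap with them for *per* and *Cry2*.

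The largest difference with a symbol was a fall. *CG11438*, which is named for a fly member of the lipid phosphate phosphatase family, had an FPKM of 105 and 107 at ZT1, 112 and 82.3 at ZT4, 17.9 and 13.8 at ZT13 and 18.3 and 18.8 at ZT16. The lowest morning library was far above the highest evening library, and the gene fell by 2.50 log2 units in the evening (SE 0.11, adjusted p = 0.000374, limma). It lies on scaffold DPSCF300462 (48481 to 60775), and 76 reads or more stood behind its value in every library. At the times that were not part of the comparison, the mean of *CG11438* was 51.8 at ZT7, 22.3 at ZT10, 34.1 at ZT19 and 79.9 at ZT22.

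Some heat shock genes were higher in the morning. Of the 11 genes in the list of heat shock proteins and chaperones, 4 passed the test, all higher in the morning, against 0.255% of all tested genes. At an unadjusted p-value under 0.05, 7 lay in that direction, against 398 of all tested genes (3.91%). At that threshold none of the 11 was higher in the evening. The list was drawn from the genes with a symbol, which were chosen as rhythmic, and 8.75% of those tested passed in either direction. The gap to all tested genes thus follows in part from the choice of members. The differences of the list ran from -1.66 to 0.23 with a median of -0.52, against 0.03 over all genes. The 4 were the 3 genes matched to *Hsp68*, an inducible chaperone of the Hsp70 family in flies, and 1 of the 3 genes matched to *l(2)efl*, a small heat shock protein of the alpha-crystallin family. The 3 *Hsp68* genes are read below as 1 measurement.

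The *Hsp68* gene DPOGS213901 had an FPKM of 16.1 and 16.0 at ZT1, 17.7 and 29.3 at ZT4, 5.38 and 5.29 at ZT13 and 5.51 and 6.16 at ZT16. The morning values were all above the evening values, and the female ZT4 library was the highest. The 3 *Hsp68* genes fell in the evening by between 1.58 and 1.66 log2 units (adjusted p = 0.0226, 0.0276 and 0.0349, limma). They lie next to each other on scaffold DPSCF300218, with 1 further gene between the first and the second. Since the authors kept 1 location per read, any reads shared by similar copies may have been split among them. How alike their sequences are was not examined. The 3 values are therefore read with caution as 1 measurement, although the counts of genes hold them as 3. For *l(2)efl* (DPOGS215439), FPKM was 13.5 and 19.99 at ZT1, 19.3 and 12.9 at ZT4, 4.56 and 4.69 at ZT13 and 6.21 and 6.87 at ZT16, a fall by 1.40 (SE 0.19, adjusted p = 0.036), again without overlap. *Hsf*, the gene of the heat shock transcription factor, passed only at ZT13 against ZT1, where it fell by 0.98 (SE 0.09, adjusted p = 0.0459, limma), and its difference over both pairs did not pass.

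Other genes higher in the morning had various roles. *CG10660* had an FPKM of 37.9 and 34.7 at ZT1, 36.5 and 35.3 at ZT4, 13.3 and 11.3 at ZT13 and 14.6 and 8.50 at ZT16, and fell by 1.54 (SE 0.11, adjusted p = 0.00466, limma). *CG32032* had an FPKM of 114.6 and 113 at ZT1, 144 and 131 at ZT4, 62.5 and 63.9 at ZT13 and 61.4 and 62.9 at ZT16, and fell by 0.98 (SE 0.08, adjusted p = 0.0119). In *CG32032* the replicates at a time lay much closer together than the groups. This also held for *CG10660* except at ZT16, where its replicates were further apart. *CG9518*, matched to a fly oxidoreductase of the glucose-methanol-choline family, fell by 1.56 (SE 0.20, adjusted p = 0.0304, limma). Its mean went from 4.67 ± 1.14 (SD, n = 4) in the morning to 0.902 ± 0.206 in the evening. At such low levels the log2 difference depends on the 1 added to FPKM, and over the settings tried it ran from -2.25 to -1.56.

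Genes of transport and signalling that were higher in the morning changed less. *Drip*, which encodes an aquaporin water channel in flies, was at 258 to 298 in the morning and at 175 to 200.4 in the evening (-0.53 ± 0.06, adjusted p = 0.0226, limma). *Oatp74D*, which imports the steroid hormone ecdysone into fly cells, was at 26.9 to 34.0 in the morning and at 16.7 to 19.5 in the evening (-0.70 ± 0.09, adjusted p = 0.0297). The groups did not overlap in either gene. The genes *egr*, the fly ligand of the tumour necrosis factor family, and *stumps*, an adaptor of fibroblast growth factor receptors in flies, differed by -0.70 ± 0.09 and -0.69 ± 0.08 (adjusted p = 0.0326 and 0.0286). *Mal-A4*, a maltase, differed by -0.63 ± 0.09 (adjusted p = 0.0373), and *CG7888* (DPOGS202993), matched to a fly amino acid transporter, by -0.34 ± 0.04 (adjusted p = 0.0304). *RIOK2*, a kinase of small ribosomal subunit maturation, differed by -0.47 ± 0.06 (adjusted p = 0.0297). The remaining 5 named genes higher in the morning, *CG43795*, *CG10527*, *CG2765*, *CG4502* and *CG30069*, differed by between -0.76 and -0.45.

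The gene *ninaB* was also higher in the evening. In flies it encodes the oxygenase that cleaves carotenoids and makes retinal, the chromophore of visual pigments. Its FPKM was 13.4 and 14.7 at ZT1, 16.6 and 12.4 at ZT4, 32.6 and 25.7 at ZT13 and 30.1 and 27.8 at ZT16, so that all evening libraries were above all morning libraries, and it rose by 0.98 ± 0.09 (adjusted p = 0.0119, limma). Both genes matched to *santa-maria*, the fly scavenger receptor for carotenoid uptake, had evening libraries above all morning libraries with differences of 0.37 ± 0.06 and 0.28 ± 0.06, neither of which passed (adjusted p = 0.0713 and 0.141). *Pdh*, a retinol dehydrogenase of fly retina pigment cells, had overlapping groups and a difference of -0.23 ± 0.08 (adjusted p = 0.326). The list of carotenoid and retinoid genes thus had 1 of 4 members past the threshold. Toward the evening 0.245% of all tested genes passed, and in either direction 8.75% of the tested genes with a symbol, from which the list was drawn.

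*CG15890* was at 35.0 and 52.3 at ZT1, 32.4 and 49.3 at ZT4, 59.3 and 86.2 at ZT13 and 60.6 and 85.4 at ZT16. The female library was above the male library at every time, and all evening libraries were above all morning libraries. The rise was 0.78 ± 0.05 (adjusted p = 0.0022, limma). In the fit without replicate number as a factor *CG15890* did not pass (adjusted p = 0.204).

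*Nha1*, a sodium/proton antiporter, has 2 genes in the list. DPOGS214162 was at 8.95 and 6.63 at ZT1, 9.54 and 7.39 at ZT4, 22.5 and 16.8 at ZT13 and 16.7 and 14.3 at ZT16, with no overlap between groups, and rose by 1.02 ± 0.10 (adjusted p = 0.0189, limma). DPOGS214215 differed by 1.01 ± 0.16 without overlap and did not pass (adjusted p = 0.0613). *Lrpprc2* and *CG13868* are neighbours on scaffold DPSCF300147 with 212 bases between them, and rose by 1.21 ± 0.16 and 1.08 ± 0.16 (adjusted p = 0.0304 and 0.0481). *Lrpprc2*, matched to a fly protein that binds mitochondrial RNA, was at 387 and 431 at ZT1, 525 and 469 at ZT4, 1172 and 1280 at ZT13 and 912 and 858 at ZT16. The rise of these neighbours was larger at ZT13 against ZT1 (1.58 and 1.46) than at ZT16 against ZT4 (0.83 and 0.70), a difference between pairs that did not pass for either (unadjusted p = 0.00256 and 0.00244, adjusted p = 0.576 for both).

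Further genes higher in the evening included *Ace*, the acetylcholinesterase that ends transmission at cholinergic synapses, at 180 to 199.99 in the morning and 228 to 266 in the evening (0.35 ± 0.05, adjusted p = 0.0389, limma). *Eip71CD*, known in flies as a methionine sulfoxide reductase gene induced by ecdysone, was at 440 to 507 in the morning and 631 to 745 in the evening (0.57 ± 0.07, adjusted p = 0.0304). *CG5853* and *CG17646*, both matched to fly ABC transporters of the ABCG family, rose by 1.25 ± 0.12 and 0.47 ± 0.06 (adjusted p = 0.0132 and 0.0364). *CG14945* had the largest rise among the called genes with a symbol, 1.52 ± 0.22 (adjusted p = 0.042), from low levels of 0.501 to 0.985 in the morning to 2.56 to 5.27 in the evening, with 7 reads behind its lowest value. The 5 other named genes, *CG31324*, *CG43693*, *CG42269*, *CG42237* and *CG3829*, rose by between 0.46 and 0.83.

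Other groups of genes had few members past the threshold. Of the 19 genes of neurotransmission 1 passed (*Ace*), against 8.75% of the tested genes with a symbol, from which the list was drawn. In the list, 7 had an unadjusted p-value under 0.05 toward the evening and 6 toward the morning, against 7.19% and 3.91% of all tested genes. Since genes with a symbol were chosen as rhythmic, a share above that of all genes follows in part from the choice. Those with the smallest p-values after *Ace* were the 2 genes matched to *e*, which in flies joins beta-alanine to dopamine and histamine, at -0.30 ± 0.05 (DPOGS210257, adjusted p = 0.0687, limma) and -0.69 ± 0.15 (DPOGS202434, adjusted p = 0.142), *Eaat2*, a glutamate transporter of glia (0.27 ± 0.05, adjusted p = 0.123), and *cac*, a calcium channel subunit (-0.69 ± 0.15, adjusted p = 0.148). None of the 7 genes of glycogen metabolism passed, 4 had an unadjusted p-value under 0.05, all toward the morning, and the list had a median of -0.22. They were *Gbs-76A* (-0.49 ± 0.09, adjusted p = 0.0835), *GlyS*, the glycogen synthase (-0.27 ± 0.06, adjusted p = 0.18), *AGBE*, the branching enzyme (-0.30 ± 0.07, adjusted p = 0.18), and *Pgm* (-0.22 ± 0.07, adjusted p = 0.258). None of the 12 genes of glycolysis and its regulators passed either, and their median was -0.06. The 3 with an unadjusted p-value under 0.05 were the regulators *Pfrx* and *Pdk* and the glycerol-3-phosphate dehydrogenase *Gpdh*, at -0.53 ± 0.11, -0.33 ± 0.08 and -0.29 ± 0.06 (adjusted p = 0.141, 0.19 and 0.148). Of the 4 genes of pentose phosphate and citrate cycle enzymes none passed, and their median was -0.08. For several genes of glycolysis and glycogen metabolism the study reported peaks around midday, between the morning and evening times compared here. A contrast of evening with morning can miss such a rhythm, so that these counts do not show a lack of daily change.

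Of the 4 genes of trehalose and maltose handling 1 passed, against 0.501% of all tested genes and 8.75% of those with a symbol, from which the list was drawn. Trehalose is the main blood sugar of insects. Of the 4 genes in the list, *Mal-A4* fell as given above and none rose past the threshold. The trehalose transporter genes *Tret1-2* and *Tret1-1* had all evening libraries above all morning libraries, with differences of 1.24 ± 0.22 and 0.99 ± 0.28 (adjusted p = 0.0834 and 0.24, limma). *Tret1-2* was at 2.96 to 3.97 in the morning, at 13.2 and 12.2 at ZT13 and at 6.99 and 7.34 at ZT16, and it passed at ZT13 against ZT1 (1.67 ± 0.14, adjusted p = 0.0429). *Tps1*, the trehalose-6-phosphate synthase, had a difference of -0.06 ± 0.12 (adjusted p = 0.882), with overlapping groups.

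For the lists that follow, 0.245% of all tested genes were called toward the evening and 0.255% toward the morning. At an unadjusted p-value under 0.05 these shares were 7.19% and 3.91%. The lists were drawn from the genes with a symbol, which were chosen as rhythmic and of which 8.75% of those tested passed in either direction. A share above that of all genes thus follows in part from the choice of members. Of the 26 transcription factor genes that were tested, out of 27 in the list, *cwo* alone passed, while 7 had an unadjusted p-value under 0.05 toward the evening and 10 toward the morning. Of the 11 genes each of proteasome and ubiquitin, and of ion, proton and water transport, 0 and 2 passed, *Nha1* toward the evening and *Drip* toward the morning in the second. Their unadjusted counts toward the evening and the morning were 6 and 2 in the first and 3 and 3 in the second. Of the 12 other transport genes 2 passed, both toward the morning (*Oatp74D* and *CG7888*), with unadjusted counts of 1 and 6 and a median of -0.23. Of 6 genes of ecdysone signalling *Eip71CD* passed, toward the evening, with unadjusted counts of 1 and 3, while the median was -0.35. *Cyp18a1*, the fly enzyme that breaks down ecdysone, was at 30.6 to 49.7 in the morning and at 13.2 to 22.6 in the evening, with no overlap, but its difference of -1.10 ± 0.20 did not pass (adjusted p = 0.0937, limma). None of 8 genes of translation passed, with unadjusted counts of 2 and 1, and their median was 0.06, close to the 0.03 of all genes.

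Marker genes of other cell types were summed to describe the tissue. The sum over 7 neuron and glia markers was 486 to 513 FPKM in the morning and 573 to 612 in the evening, without overlap, with 1 of the 7 (*Ace*, the most abundant member) past the threshold. Of the 7, *cac* lay toward the morning (-0.69) and the other 6 toward the evening by 0.10 to 0.35. The sum over 3 fat body and gut markers was 172 to 221 in the morning and 133 to 166 in the evening and followed *Mal-A4*, its most abundant member, which passed. The other members lay toward the evening and did not pass, *fabp* by 0.60 ± 0.11 (adjusted p = 0.0937, limma) and *Pepck* by 0.45 ± 0.20 (adjusted p = 0.479), so that the sum does not stand for the list. In each of these lists the exact two-sided permutation test over 8 libraries gave p = 0.0286, the smallest it can give. The members were chosen as rhythmic in libraries that include these 8, so that this p-value is not independent evidence of a shift. Sums over 2 retina markers (48.5 to 53.3 and 50.4 to 55.6) and 2 cuticle markers (264 to 468 and 288.7 to 385) overlapped (p = 0.429 and 0.657, same exact test). None of these markers was at 0 in all libraries, and all came from the list of rhythmic genes, so that they check the tissue only in part. The part of such shifts in the differences above was not tested. In libraries of a whole brain, fewer cells of a type and less RNA per cell cannot be told apart.

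The reads behind a value set a limit on some calls, as the plot of reads against change shows. The smallest p-value of all belonged to DPOGS207369, a locus of 109 bases on scaffold DPSCF301179 (3808 to 3916) without a symbol. Its FPKM of 53.1 to 122 in the 4 morning libraries rested on 5 reads in all, and it was listed at 0 in all 4 evening libraries. No fold is given for it. Among the 51 genes, 3 had a mean under 10 reads per library, none of which has a symbol. These and all other genes of under 10 reads were then left out, a choice made after the data were seen. The adjustment then ran over the remaining genes, so that its p-values differ from those given above. In this set 69 genes passed, 34 higher in the evening and 35 in the morning. These included 48 of the 51 and also *e* (DPOGS210257, adjusted p = 0.0484, limma), *vri* (adjusted p = 0.0245, limma), *Tret1-2* (0.0455), the second *Nha1* gene (0.0315), *CG5535* (DPOGS201195, 0.0273) and *santa-maria* (DPOGS202827, 0.0492). The other genes without a symbol with the smallest p-values were DPOGS209511 toward the morning (-0.83 ± 0.09, adjusted p = 0.023, 103 reads or more in every library) and DPOGS214271 and DPOGS201101 toward the evening (0.94 ± 0.11 and 0.66 ± 0.08, adjusted p = 0.0265 and 0.0297).

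**Figure D3:**
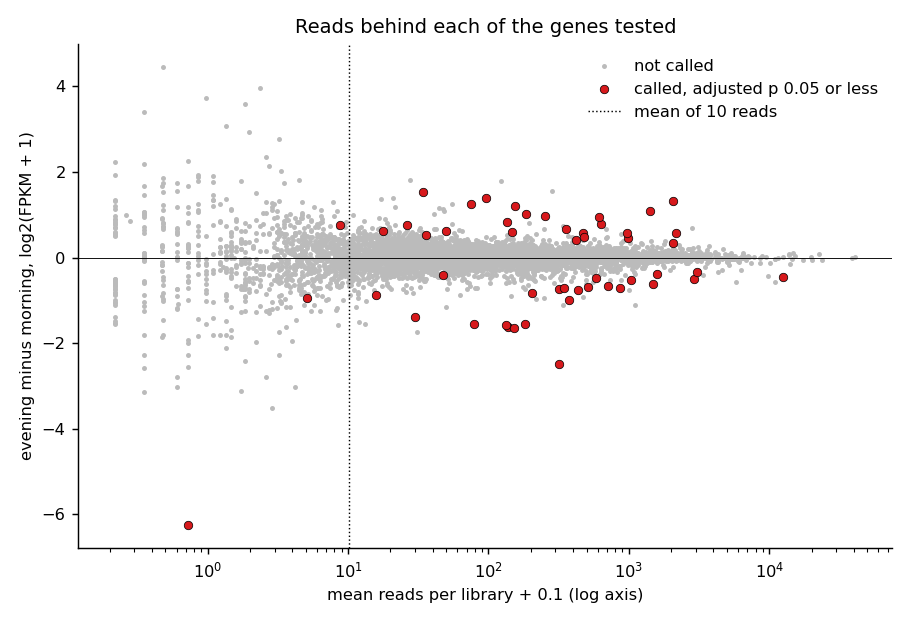
Difference between evening and morning in log2(FPKM + 1) against the mean reads per library (plus 0.1, log axis) for the 10188 genes tested, with the 51 genes that passed in red and a mean of 10 reads as a dotted line. The red point at the lower left is DPOGS207369, whose height depends on the 1 added to FPKM, and 3 of the red points lie left of the dotted line.

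The 2 pairs of times were then tested one by one. Between ZT13 and ZT1, 22 genes passed (0.216% of those tested, 8.06% at an unadjusted p-value under 0.05), of which 6 had a mean under 10 reads. Between ZT16 and ZT4, 5 genes passed (0.0491%, 8.48% at an unadjusted p-value under 0.05), namely *tim*, *per*, *CG11438*, *CG32032* and the short locus DPOGS207369. The differences of *tim* were 1.17 ± 0.08 and 1.46 ± 0.08, those of *CG11438* were -2.68 ± 0.15 and -2.31 ± 0.15, and those of *CG32032* were -0.84 ± 0.08 and -1.13 ± 0.08 at the first and the second pair. The difference between pairs passed for 0 genes (limma, 562 genes or 5.52% at an unadjusted p-value under 0.05), so that no gene was shown to change by a different amount in the pair that spans lights off. Light and time of day cannot be told apart within the second pair.

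Male and female libraries were compared in the same way. The difference between evening and morning was not shown to depend on replicate number for any gene (0 genes by limma, 474 or 4.65% at an unadjusted p-value under 0.05). For *tim* the female change minus the male change was -0.02 (adjusted p = 0.998), and for *CG11438* it was 0.05 (adjusted p = 0.996). Each group held 2 libraries of each sex in this test.

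The heat map shows how the called genes ran over all 8 wild-type times. Of the 25 genes higher in the evening, 11 had their highest mean at ZT13 and 5 at ZT16, while 3 each had it at ZT10, ZT19 and ZT22. Their lowest mean fell at ZT1 for 9 genes, at ZT4 for 7, at ZT7 for 4 and at ZT22 for 5. Of the 26 genes higher in the morning, 15 had their highest mean at ZT4 and 6 at ZT1, and 12 had their lowest at ZT13 and 8 at ZT16. The choice of the genes sets much of this count, since the values at the 4 compared times chose them. At the times outside the comparison, the median of the 25 genes relative to their own mean over 16 libraries was -0.24 and -0.21 log2 units at ZT7, 0.13 and 0.24 at ZT10, 0.14 and 0.18 at ZT19 and 0.02 and -0.42 at ZT22. For the 26 genes it was 0.14 and 0.22 at ZT7, 0.0036 and -0.03 at ZT10, -0.32 and -0.10 at ZT19 and 0.14 and 0.17 at ZT22. The 25 genes were thus below their mean at ZT7 and above it at ZT10 and ZT19, and the 2 libraries at ZT22 lay apart. The female ZT22 library had 9184 genes with an FPKM of at least 3, against 9462 to 9583 in the other 15 wild-type libraries, and its part in this value was not tested.

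**Figure D4:**
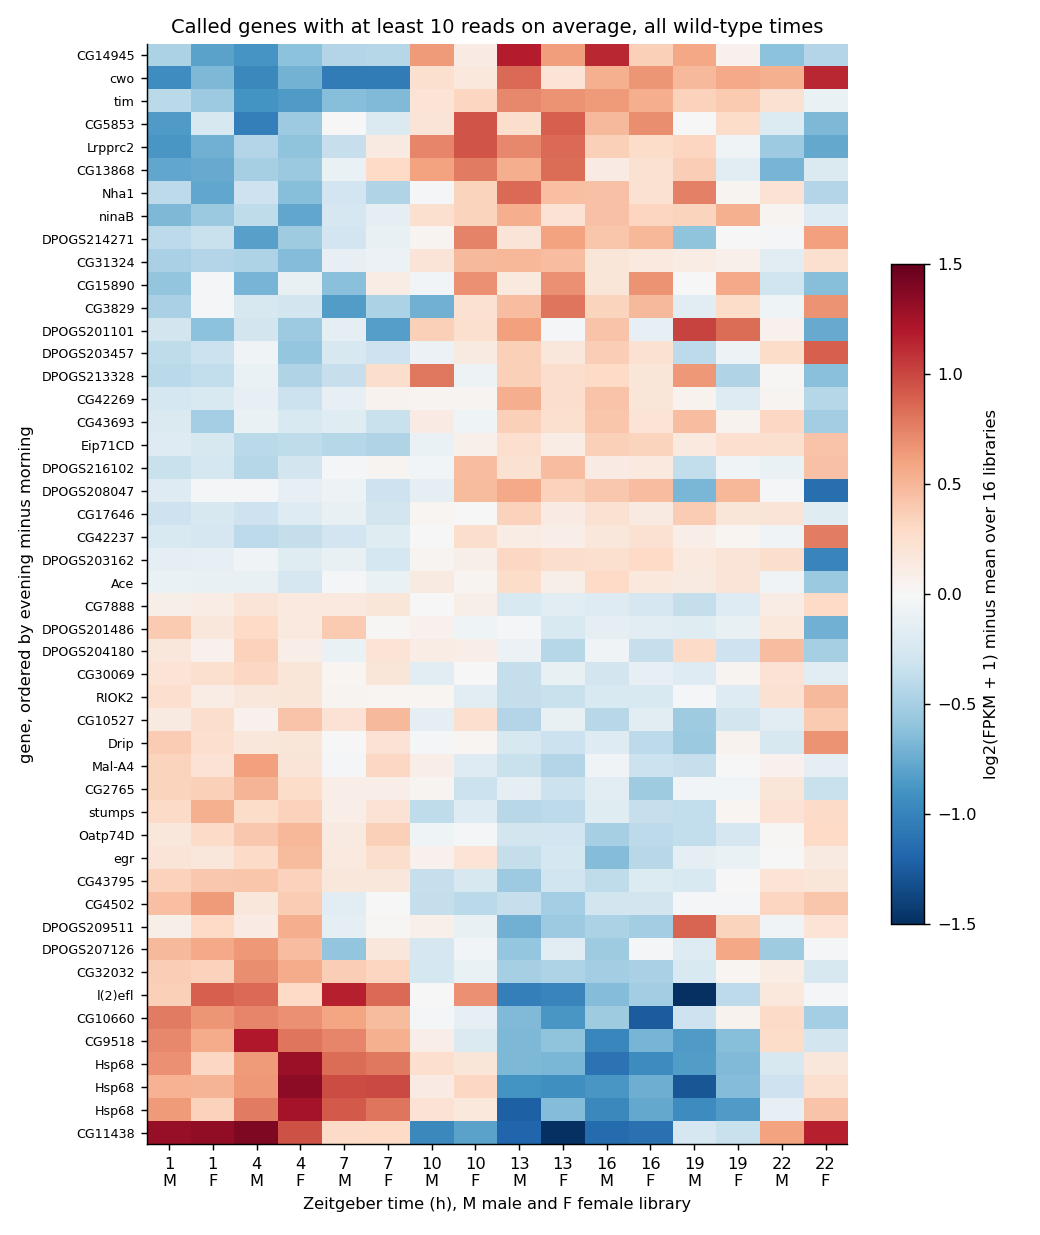
Log2(FPKM + 1) minus the mean over the 16 wild-type libraries (colour scale from -1.5 to 1.5) for the 48 genes that passed and had a mean of at least 10 reads, against library ordered by Zeitgeber time in hours, M male and F female. Genes are ordered by the difference between evening and morning, with those higher in the evening at the top.

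To see whether these differences were present without a working clock gene, ZT16 was set against ZT4 in knockouts, in a fit over 24 libraries of all 3 genotypes. In *Cry2* knockouts 0 genes passed (limma, 218 or 2.14% at an unadjusted p-value under 0.05), and 23 of the 51 genes had the direction of the wild-type, against 52.1% of all tested genes. The median difference was -0.02 for the 25 genes higher in the wild-type evening and -0.0088 for the 26 genes higher in the morning, where the wild-type gave 0.66 and -0.83 for the same times (in this wild-type contrast 4.2% of all genes reached an unadjusted p-value under 0.05). These wild-type libraries were used to choose the genes, so that part of the gap is fixed by the choice. The knockout libraries were not used for it. The *Cry2* transcript was at 22.6 and 23.4 at ZT4 and 23.2 and 22.3 at ZT16 in *Cry2* knockouts, within the wild-type range given above, so that its level does not check the label, and the *Clk* transcript was not analysed here.

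In *Clk* knockouts the median over genes was shifted, and the male ZT4 library stood apart with a median-of-ratios scale of 0.791 against 0.95 to 1.06 in the other 3 libraries at ZT4 and ZT16. The median over all genes was 0.26 log2 units, and it was 0.26 for the 25 genes and 0.21 for the 26 genes. Without that library the medians were 0.14 for all genes, 0.24 for the 25 and 0.17 for the 26. In that setting 22 of the 51 genes had the wild-type direction, against 57.4% of all genes. With the library kept, the wild-type direction was found for 24 of the 51 genes, against 60.9% of all genes. With median-of-ratios scaling the medians were 0.01 and -0.03, and 28 of 51 genes had the wild-type direction, against 54.9% of all genes. Between ZT16 and ZT4 1 gene passed in *Clk* knockouts (0.00982%, and 2063 genes or 20.2% at an unadjusted p-value under 0.05), a locus without a symbol with a mean of 2.3 reads. With the female ZT4 library left out, which leaves the male one alone at that time, 540 genes passed, and with the male one left out 3 passed.

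The change of *CG11438* and of the 3 *Hsp68* genes was tested to differ from the wild-type in both knockouts. *CG11438* was at 68.9 and 89.0 at ZT4 and 92.7 and 74.9 at ZT16 in *Cry2* knockouts, and at 28.5 and 34.2 at ZT4 and 40.1 and 36.0 at ZT16 in *Clk* knockouts. It was thus near the wild-type morning level at both times without *Cry2*, and between the wild-type levels without *Clk*. The change from ZT4 to ZT16 differed from that of the wild-type by 2.40 ± 0.27 in *Cry2* (adjusted p = 0.0028, limma) and 2.59 ± 0.27 in *Clk* knockouts (adjusted p = 0.00117). *Hsp68* (DPOGS213901) was at 23.8 and 28.9 at ZT4 and 27.6 and 35.7 at ZT16 in *Cry2* knockouts, and at 16.9 and 14.7 and then 12.7 and 17.9 in *Clk* knockouts. All these values were above the 5.51 and 6.16 of the wild-type at ZT16. The change of the 3 *Hsp68* genes differed from the wild-type by 2.01 to 2.06 in *Cry2* knockouts (adjusted p = 0.00863, 0.00863 and 0.00933) and by 1.75 to 1.98 in *Clk* knockouts (adjusted p = 0.0109, 0.0109 and 0.0325). In all, 5 genes (0.0491%, with 3.1% at an unadjusted p-value under 0.05) passed this test in *Cry2* knockouts and 8 (0.0785%, with 7.14%) in *Clk* knockouts, each count with 1 locus that rests on 2 reads in all libraries together. The tests of both knockouts share the wild-type libraries. With 1 library of ZT4 or ZT16 left out in turn, *CG11438* passed in each fit for both knockouts (adjusted p up to 0.0344 and 0.0159). The *Hsp68* calls did not hold in this way. Without the female ZT4 or the male ZT16 wild-type library, none of the 3 passed in *Cry2* knockouts (adjusted p = 0.0542 to 0.0599) or in *Clk* knockouts (0.0629 to 0.188), and the same was found in *Cry2* knockouts without either of the female *Cry2* knockout libraries (0.0558 to 0.0985) and in *Clk* knockouts without the female ZT16 *Clk* knockout library (0.0711 to 0.199). Without the male ZT4 wild-type or the male ZT4 *Clk* knockout library, all 3 calls held in both knockouts.

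The changes of *CG32032*, *Oatp74D* and *egr* also differed from the wild-type in *Clk* knockouts (1.36 ± 0.20, 1.08 ± 0.17 and 1.16 ± 0.15; adjusted p = 0.0177, 0.0281 and 0.00829, limma), and in *Cry2* knockouts the differences were 1.09 ± 0.20, 0.97 ± 0.17 and 0.81 ± 0.15 (adjusted p = 0.1, 0.0796 and 0.1). Without the female ZT4 or the male ZT16 wild-type library, or without the male ZT16 *Clk* knockout library, none of these 3 calls held in *Clk* knockouts (adjusted p = 0.0584 to 0.235). The scaling and the male ZT4 library of *Clk* knockouts also moved these calls. With median-of-ratios scaling, *CG11438* alone of the 51 genes passed in *Clk* knockouts (2.36, adjusted p = 0.00198), and the *Hsp68* genes did not (adjusted p = 0.0840, 0.0959 and 0.252). In *Cry2* knockouts 8 of the 51 passed under that scaling, among them *CG11438*, the 3 *Hsp68* genes, *tim* (-1.40 ± 0.20, adjusted p = 0.0222), *CG32032* and *Oatp74D*. Without the male ZT4 library of *Clk* knockouts, *CG32032* and *Oatp74D* no longer passed in *Clk* knockouts (adjusted p = 0.0926 and 0.129), while *CG11438*, *Hsp68* and *egr* did.

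The clock genes *tim*, *cwo* and *per* were also read in knockouts at these times. For *tim*, FPKM was 63.7 and 62.4 at ZT4 and 69.9 and 58.2 at ZT16 in *Cry2* knockouts, between the wild-type morning and evening levels, and 19.002 and 24.6 and then 29.5 and 31.3 in *Clk* knockouts, below both. For *cwo*, *Cry2* knockouts were at 17.8 and 23.5 at ZT4 and 18.5 and 21.0 at ZT16, as high as the wild-type evening, and *Clk* knockouts at 4.11 and 6.43 and then 4.04 and 5.58, as low as the wild-type morning. The change of *tim* differed from that of the wild-type by -1.44 ± 0.26 and -0.99 ± 0.26 and that of *cwo* by -1.49 ± 0.28 and -1.53 ± 0.28 in *Cry2* and *Clk* knockouts, none of which passed (adjusted p = 0.1, 0.343, 0.1 and 0.0754, limma). For *per*, *Cry2* knockouts were at 42.3 and 43.2 at ZT4 and 46.6 and 39.2 at ZT16, above the wild-type at both times, and *Clk* knockouts at 3.49 and 5.80 and then 5.01 and 5.24, below it. The change of *per* differed from that of the wild-type by -1.31 ± 0.27 and -1.16 ± 0.27, neither of which passed (adjusted p = 0.201 and 0.221). It passed in *Cry2* knockouts with median-of-ratios scaling (-1.27, adjusted p = 0.0419) and in *Clk* knockouts without their male ZT4 library (-1.49, adjusted p = 0.0488).

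**Figure D5:**
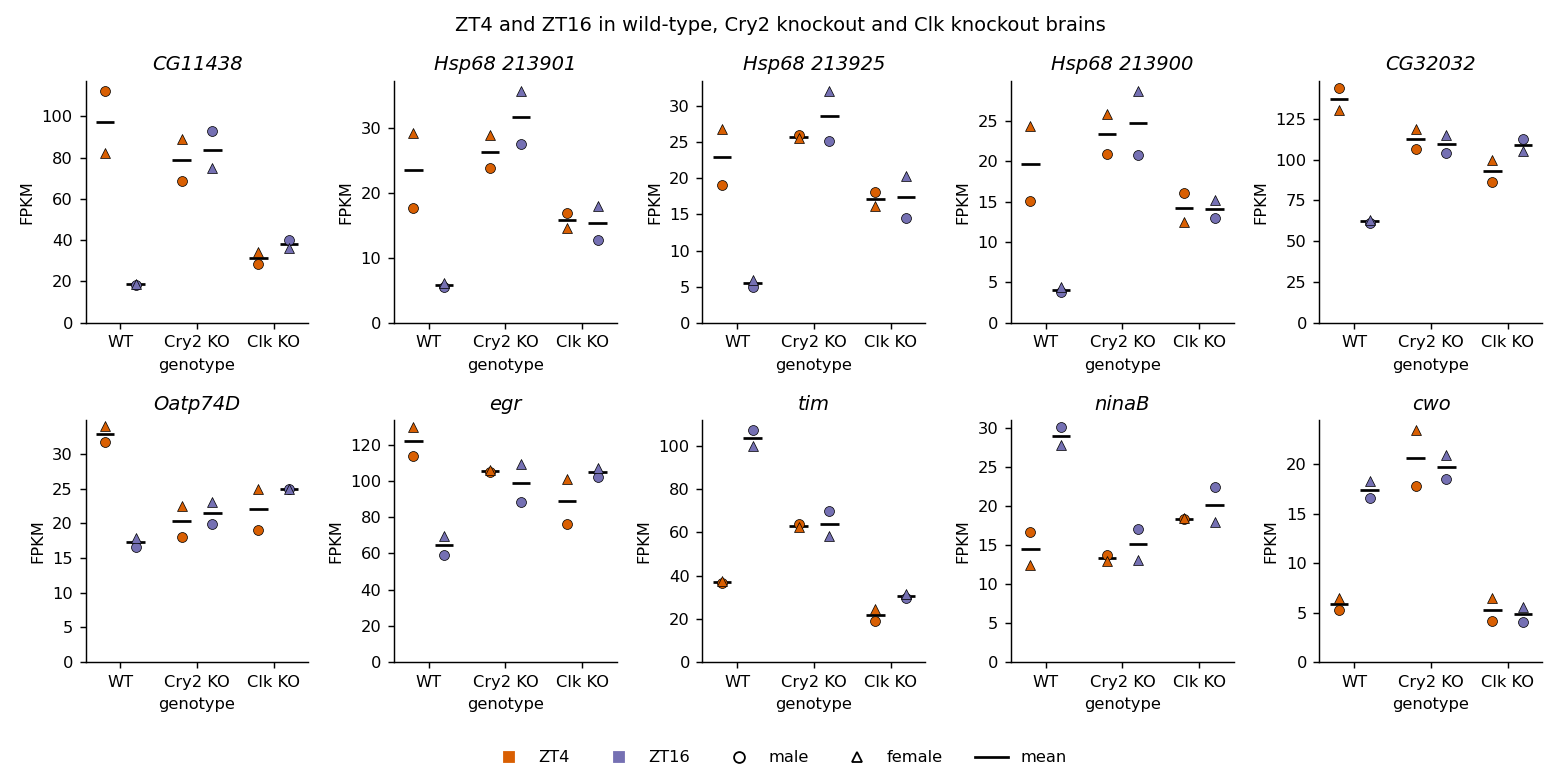
FPKM at ZT4 (orange) and ZT16 (purple) of 10 genes in wild-type, *Cry2* knockout and *Clk* knockout brains, with circles for male and triangles for female libraries and a line at the mean of 2 libraries. The wild-type values at the 2 times are apart for every gene shown, and for *CG11438* the *Cry2* knockout values lie between 68.9 and 92.7 at both times.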

How the data were processed

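Polyadenylated RNA of 3 pooled brains per library was sequenced as 50-base single-end reads. The authors aligned reads with TopHat2, kept 1 location per read, and made gene values in FPKM with Cufflinks on assembly v3. The deposited FPKM of 8 wild-type libraries were log2-transformed after adding 1 and fitted with limma 3.58.1 in R 4.3.3, with an intensity trend, replicate number as a factor and Benjamini-Hochberg adjustment over 10188 genes. Calls required an adjusted p-value not above 0.05. Pairs of times and the interaction with replicate number were fitted on the same libraries, and knockouts in a fit of 24 libraries. In simulated data with the same genes and normal noise of the fitted spread, 60% of changes of 0.5 log2 units and 88% of changes of 1 unit were recovered, with 5 false calls. The changes were placed only in genes above a floor of mean expression, so that recovery among weakly expressed genes was not tested. Named genes were the 5 clock genes, called genes with a symbol by smallest p or largest change, up to 2 called genes without a symbol per direction, and up to 4 list members by smallest p, and further called genes were added after their values were seen. Members, lists and tests were chosen with earlier results of these data known. Other libraries were left out as they lie at times outside the comparison. Other scalings, filters, pseudocounts, variance models and designs were tried.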

Additional observations from a re-analysis of the deposited data

Results flagged for a closer look

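Of 198 groups of 4 libraries checked, 8 held a library far from the other 3, where chance gives about 1 in 20. In the morning, the female ZT4 library was high for *Hsp68* (DPOGS213901; 29.3 FPKM) and low for *Ace* (180 FPKM), and it was the library apart for *LeuRS* (8.92 FPKM). The male ZT4 library was apart for *Taldo* (72.5 FPKM) and the male ZT1 library for *Neurl4* (57.0 FPKM). In the evening, the male ZT13 library was apart for *Tps1* (148 FPKM) and the female ZT16 library for *Wnk* (115.5 FPKM) and *Bre1* (3.54 FPKM).

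The change from ZT4 to ZT16 differed between knockout and wild-type brains by the test given in the report for 4 genes with *Cry2* and 7 with *Clk*, as a difference in log2(FPKM + 1). In *Cry2* knockouts the values were 2.40 for *CG11438* and 2.05, 2.01 and 2.06 for the *Hsp68* genes DPOGS213901, DPOGS213925 and DPOGS213900. In *Clk* knockouts they were 2.59 for *CG11438*, 1.75, 1.89 and 1.98 for the same *Hsp68* genes, 1.36 for *CG32032*, 1.08 for *Oatp74D* and 1.16 for *egr*.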

How the results depend on the processing

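The count of 51 genes stayed between 38 and 53 when 0.1 was added before the logarithm, and with the other FPKM filters, scalings, robust variances and the spread of 16 wild-type libraries, although that last fit shared only 28 of the 51. With genes of under 10 mean reads left out, a filter added after the data were seen, it was 69. Without an intensity trend 28 genes passed (13 in the evening and 15 in the morning). Without 1 library, 4 to 15 genes passed (1 to 9 in the evening, 3 to 9 in the morning), so that most calls need all 8 libraries. With median-of-ratios scaling 19 genes were higher in the evening and 29 in the morning.

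Replicate number did not pair the samples (correlations of the differences between replicates from -0.02 to 0.12 over 6 pairs of times). Without the replicate block 48 genes passed (22 and 26), 39 of them among the 51, and 1 gene passed for the difference between pairs of times. With the replicate block and the pair of times as factors, 20 genes passed (9 and 11).

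In knockouts, median-of-ratios scaling gave 10 genes for *Cry2* and 2 for *Clk* in the test against the wild-type, and leaving out 1 library gave 2 to 6 and 3 to 14. Within *Clk* knockouts that range was 0 to 540, and within *Cry2* knockouts the count was 0 throughout. No called gene changed direction. Near 0, *Mdh1* (0.02) turned to -0.0161 with median-of-ratios scaling. Without 1 library, *Mdh1* ranged from -0.0158 (with -0.0036 and -0.0090 also below 0) to 0.049, *Cry2* from -0.12 to 0.0378 (with 0.0081 and 0.0342 also above 0), *Cpr49Ag* from -0.29 to 0.0246 and *Tps1* from -0.17 to 0.0210. The causes were not tested. Depth limits short or weakly expressed genes.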
